A study of Homo sapiens with 1 sample.

Results

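WNT signalling was examined in 1 single-cell library through 53 genes that encode WNT ligands, the proteins that release them, their receptors, their extracellular modulators, the nuclear TCF/LEF factors and feedback genes. The members were taken by symbol: all WNT ligands (WNT followed by a number), all frizzled receptors (FZD), the R-spondins (RSPO1 to RSPO4), the secreted frizzled-related proteins (SFRP1 to SFRP5, of which SFRP3 is listed as FRZB and was not a member), the Dickkopf proteins (DKK1 to DKK4), and WLS, PORCN, LRP5, LRP6, AXIN2, LEF1, TCF7, TCF7L1, TCF7L2, RNF43, ZNRF3 and WIF1. They made up 53 of the 33538 genes in the count table, and all 53 had at least 1 unique molecular identifier (UMI, 1 per captured RNA molecule) in the cells analysed. The rule used symbols and no expression values.

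The cells came from the established hESC line H9 (human embryonic stem cells) and had the genotype WT, so they carried the human form of HAR123 (hHAR123), an enhancer in the gene SMG6. They were being differentiated into neural progenitor cells (NPCs) and were collected before rosettes were selected. The study made libraries of further genotypes to ask what HAR123 does in NPC generation; only the hHAR123 library was analysed here, so no genotypes are compared. Cells were treated with Dorsomorphin (1 μM) and SB431542 (10 μM), inhibitors of BMP and of TGF-β/activin receptor signalling, first for 2 days as adherent colonies with 5 μM Rock inhibitor and then for 5 days under rotation. They were then replated on Matrigel for 7 days without these inhibitors. Cells of independent WT clones were mixed before loading, and the clones cannot be told apart in the data. With 1 library there are no replicates: no test was run, cells are not replicates, and every interval below covers counting error alone.

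In the canonical pathway, a WNT ligand brings a frizzled receptor together with LRP5 or LRP6, which stabilises β-catenin, and β-catenin then acts with TCF/LEF factors at target genes. R-spondins strengthen the signal by removing the E3 ligases RNF43 and ZNRF3 from the surface, secreted frizzled-related proteins and WIF1 bind ligands, and Dickkopf proteins such as DKK1 block the co-receptors. AXIN2, RNF43, ZNRF3, LEF1 and TCF7 are commonly used as readouts because the pathway induces them. In the early neural plate, low WNT signalling favours anterior (forebrain) fates, and later WNT ligands from the cortical hem and roof plate pattern the dorsal telencephalon.

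The study's quality limits (2000 to 10000 detected genes and a mitochondrial share of UMIs below 0.1) kept 13925 of 14726 barcodes, with 314660383 UMIs in all. A cell was called contractile when ANXA1, TFPI2 and CTGF together reached 5 UMIs per 10000 of the cell, which gave 1584 contractile cells (11.4%) and 12341 other cells. This index had no gap at its limit: 328 cells lay between 2.5 and 5, 322 between 5 and 10, and 7903 kept cells had none of the 3 transcripts. Contractile cells were deeper, with a median of 47217 UMIs against 16910 in the other cells, while the median mitochondrial share was 5.12% and 5.16%. The name was checked against genes the index did not use. All 8 markers listed as contractile were at least 2-fold higher in contractile cells (TAGLN 4595 against 443.1 UMIs in 1000000 UMIs of the group, CPM). They were TAGLN, MYL9, ACTA2, TPM1, CNN1, CYR61, ANKRD1 and THBS1. Whether CYR61, ANKRD1 and THBS1 are independent of the index gene CTGF was not tested. The name therefore rests on TAGLN, MYL9, ACTA2, TPM1 and CNN1. Cells past the limit differed in TAGLN, MYL9 and ACTA2, as given further on. Of 9 neural progenitor markers, 7 were lower (SOX2 117 against 412.1 CPM), and NES was higher. Of markers of other cell types, KRT8 and KRT18 were 3.63-fold and 4.74-fold higher, whereas EPCAM had a ratio of 0.821. GATA6 was 21.7-fold (3.56 against 0.164 CPM) and GATA4 3.00-fold higher, and FOXA2 and HAND1 had 0 UMIs. Of the 5 roof plate and cortical hem markers, BMP6 (9.72) and GDF7 (2.11) were called higher and LMX1A (0.0616) lower, MSX1 had 1.40, and TTR had 5 and 3 UMIs. Of 4 p53 targets, CDKN1A (7.67) was called higher, of 5 neuron markers 3 were called lower, of 4 pluripotency markers NANOG was, and of 4 mesoderm markers none was called. Of the 9 markers of crest and mesenchyme, 3 were called higher (TWIST1 14.8, COL1A2 8.39 and LUM 5.58) and 2 lower (TFAP2A 0.170 and SOX10 0.335). PRRX1 (1.07) and PDGFRA (1.03) were within 2-fold, and TFAP2B and DCN had too few UMIs, DCN having 0 in contractile cells. The part of such cells, and of the depth, in the results below was not tested except where values are given.

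Because 1 cell group held far more RNA per cell, the scale matters for every ratio. Levels below are in CPM, pooled over the cells of a group, and a ratio is the level in contractile cells over that in the other cells. On this scale the median of the 18696 genes with at least 100 UMIs had a log2 ratio of -0.38, and by UMIs per cell it had 0.95. A member was called higher at a ratio of 2 or more and lower at 0.5 or less, among those with at least 100 UMIs in the kept cells. Of the 53 members, 36 reached 100 UMIs. Of these 36, 5 were called higher (13.9%, against 7.45% of all genes) and 11 lower (30.6%, against 24% of all genes), and 20 were neither. The median ratio of the 36 was 0.640, against 0.771 over all genes. By UMIs per cell, 12 members were called higher (47.6% of all genes) and 2 lower (4.21% of all genes), RSPO1 (0.207) and WNT7B (0.325). The balance of directions thus belongs to the CPM scale, whereas the order of the members does not depend on it.

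**Figure D1:**
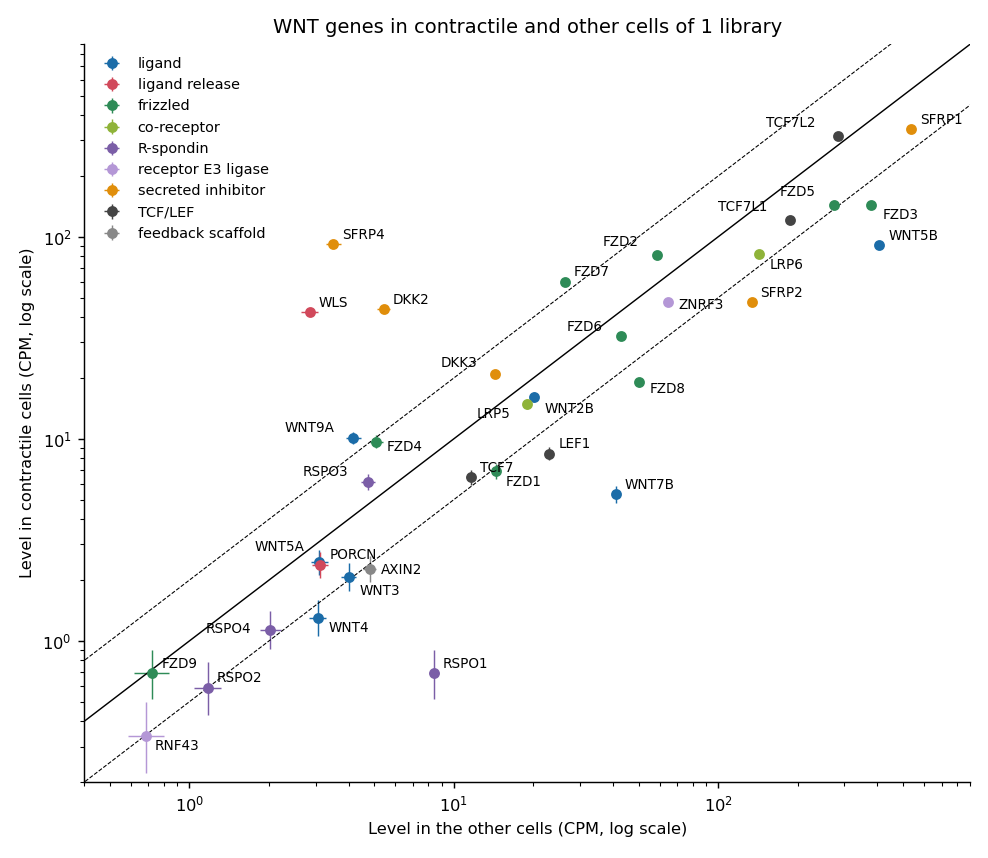
Level of the 36 members with at least 100 UMIs in contractile cells (vertical) and other cells (horizontal), both in CPM on log scales, with exact 95% Poisson intervals and colours for the role of the gene; the solid line marks equal levels and the dashed lines 2-fold differences. SFRP4, WLS and DKK2 lie far above the upper dashed line with ratios of 26.3, 14.9 and 8.07, and RSPO1, WNT7B and WNT5B lie far below the lower one.

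The 3 members farthest above the other cells act outside the cell or in ligand release, and the member farthest below is an R-spondin. The region around the start site is shown for those of them with a RefSeq promoter and for DKK1, a known target of the pathway that is described further on. Each window runs from 250 bases before to 50 after the start site on the gene's strand (RefSeq, GRCh38.p14). The SFRP4 window is chr7:37916768-37917067 (minus strand), that of WLS chr1:68232474-68232773 (minus strand), that of RSPO1 chr1:37634843-37635142 (minus strand) and that of DKK1 chr10:52314031-52314330 (plus strand).
SFRP4: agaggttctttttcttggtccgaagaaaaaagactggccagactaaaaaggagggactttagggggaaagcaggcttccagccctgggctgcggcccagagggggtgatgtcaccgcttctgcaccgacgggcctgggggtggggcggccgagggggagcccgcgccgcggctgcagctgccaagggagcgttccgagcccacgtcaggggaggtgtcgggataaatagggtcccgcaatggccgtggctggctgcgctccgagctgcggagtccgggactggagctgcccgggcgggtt
WLS: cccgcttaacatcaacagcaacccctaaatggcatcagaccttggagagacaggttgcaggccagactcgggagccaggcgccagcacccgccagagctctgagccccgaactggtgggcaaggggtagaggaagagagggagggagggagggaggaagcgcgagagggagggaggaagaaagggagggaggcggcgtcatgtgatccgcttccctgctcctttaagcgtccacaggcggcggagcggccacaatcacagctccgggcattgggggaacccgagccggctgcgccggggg
RSPO1: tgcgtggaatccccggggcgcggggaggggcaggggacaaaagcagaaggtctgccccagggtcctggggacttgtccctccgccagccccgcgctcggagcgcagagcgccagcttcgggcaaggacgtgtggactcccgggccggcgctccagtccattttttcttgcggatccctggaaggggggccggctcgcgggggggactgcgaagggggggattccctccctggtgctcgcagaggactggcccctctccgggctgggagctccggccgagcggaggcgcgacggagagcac
DKK1: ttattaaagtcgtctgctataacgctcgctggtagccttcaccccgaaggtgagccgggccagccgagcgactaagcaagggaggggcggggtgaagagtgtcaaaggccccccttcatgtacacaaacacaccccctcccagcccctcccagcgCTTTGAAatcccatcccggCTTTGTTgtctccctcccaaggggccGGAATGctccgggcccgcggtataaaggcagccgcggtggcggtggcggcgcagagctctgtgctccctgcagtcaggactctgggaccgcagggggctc
Capitals mark the motifs found by a search of both strands for TCF/LEF heptamers (CTTTG followed by AA, by AT, by TA or by TT), for the TEAD hexamer GGAATG and for the AP-1 heptamer TGANTCA. The search was made because β-catenin acts through TCF/LEF factors and because CTGF is a known target of YAP and TEAD. Only DKK1 among these windows held a match: TCF/LEF letters at bases 156 to 162 and 175 to 181, and TEAD letters at bases 201 to 206, counted from 1 at the 5′ end. Over 46 scanned windows of 37 members, a TCF/LEF match was found in 4, a TEAD match in 3 and an AP-1 match in 1, and of all 35116 RefSeq promoters 13.8%, 14.0% and 7.71% held such a match. These are letters in a window and no evidence of binding.

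Of the 7 ligand genes with at least 100 UMIs, 3 were called lower in contractile cells (24% of all genes) and 1 higher (7.45% of all genes). Over all 19 ligand genes, contractile cells had 129.1 CPM (95% interval 126.6 to 131.7) against 483.6 CPM in the other cells, a ratio of 0.267. Most of these UMIs were WNT5B and WNT7B. The other 17 ligand genes, summed after these values were seen, had 33.0 against 34.99 CPM, a ratio of 0.944 (0.903 to 0.987). WNT5B, a ligand of mostly non-canonical signalling (ENSG00000111186, chr12:1529891-1647212, GRCh38), had 90.7 CPM against 407.6 CPM, a ratio of 0.223 (0.217 to 0.228). After each cell was thinned at random to 5000 UMIs, 29.9% of contractile cells (27.7 to 32.2%) and 80.2% of the other cells (79.5 to 80.9%) held a WNT5B UMI. Before thinning, 84.2% of contractile and 97.3% of other cells held one. By UMIs per cell the WNT5B ratio was 0.559, which is not a lower call. WNT7B, a canonical ligand of the forebrain, had 5.31 CPM in contractile cells and 41.0 CPM in the others, a ratio of 0.129 (0.117 to 0.143). WNT4 was the third ligand called lower, with 1.30 against 3.05 CPM, but by UMIs per cell its log2 ratio turned to 0.10. Its lower call was also lost after thinning, at 0.622 (0.341 to 1.05), and against the median gene, at 0.554.

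WNT9A was the ligand called higher, with 10.1 CPM in contractile cells and 4.17 CPM in the others, a ratio of 2.43 (2.21 to 2.67). Of the remaining ligands with 100 UMIs, WNT2B had a ratio of 0.808, WNT5A 0.790 and WNT3 0.517, all within 2-fold. After thinning, WNT3 had 0.440 (0.237 to 0.752), past the limit for a lower call. The share of ligand UMIs held by each gene differed accordingly. WNT5B held 70.3% of ligand UMIs in contractile cells and 84.3% in the others, WNT9A 7.85% against 0.863%, WNT2B 12.5% against 4.14%, and WNT7B 4.11% against 8.49%.

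The other 12 ligand genes had between 1 and 47 UMIs in all kept cells and are given as counts. WNT3A, a canonical ligand of the cortical hem, had 36 UMIs in the other cells and 0 in contractile cells. A level of 3 counts there is 0.0391 CPM, and the exact interval of the WNT3A ratio reaches up to 0.335. WNT7A had 25 UMIs in contractile and 21 in other cells, a ratio of 3.69 (1.98 to 6.94), WNT10B 23 and 24 UMIs, and WNT10A 10 and 7 UMIs, of which up to 4 came from 1 cell. WNT8A had 26 UMIs, WNT8B 13, WNT16 10, WNT9B 8, WNT2 7, WNT11 5, WNT6 4 and WNT1 1 in total. Of these ligand genes, 4 pairs lie side by side in the genome. WNT6 with 4 UMIs and WNT10A with 17 are 6.62 kb apart on chromosome 2, and WNT1 with 1 UMI and WNT10B with 47 are 6.59 kb apart on chromosome 12. WNT9A had 1770 UMIs and WNT3A, 59.1 kb away on chromosome 1, had 36; WNT3 had 1113 UMIs and WNT9B, which starts 0.046 kb from it on chromosome 17 in the opposite direction, had 8.

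Of the genes of ligand release, only WLS differed by 2-fold. WLS (ENSG00000116729, chr1:68098473-68233120, GRCh38) encodes the carrier that brings lipid-modified WNT proteins to the cell surface. It had 42.5 CPM in contractile cells (41.0 to 43.9) and 2.85 CPM in the others (2.64 to 3.07), a ratio of 14.9 (13.7 to 16.2), which was 2.58 when the same number of cells was picked by TAGLN, MYL9 and ACTA2. After thinning, 13.2% of contractile cells and 1.04% of the others held a WLS UMI, and before it 39.1% and 3.02%. WLS transcripts were unevenly spread: the richest 10% of contractile cells held 63.8% of them. PORCN, the acyltransferase that lipid-modifies WNT ligands, had 2.39 against 3.12 CPM, a ratio of 0.764 that is close to the median gene.

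Frizzled receptors summed to 497.2 CPM in contractile cells and 851.2 CPM in the others, a ratio of 0.584, and the subfamilies differed from each other. In the subfamily of FZD1, FZD2 and FZD7, FZD7 was called higher with 59.9 against 26.3 CPM (ratio 2.28, 2.19 to 2.37), and FZD2 had a ratio of 1.39. The FZD7 call was lost, at 1.96, when cells were picked by TAGLN, MYL9 and ACTA2 and, at 1.99, among cells of 20000 to 60000 UMIs. FZD1 was called lower with 6.90 against 14.5 CPM, but it had 0.527 after thinning and 0.618 of the median gene, neither of which is a lower call, and by UMIs per cell its log2 ratio was 0.26. FZD4, the receptor of norrin as well as of WNT ligands, lay just inside the 2-fold limit with a ratio of 1.90 (1.73 to 2.09). It had 2.47 of the median gene, which is a higher call.

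In the subfamily of FZD5 and FZD8, which is found in the anterior neural plate and eye field, FZD8 was called lower with 19.0 against 49.98 CPM (ratio 0.381, and 0.554 when cells were picked by TAGLN, MYL9 and ACTA2) and FZD5 stood just inside the limit at 0.524, with 143.3 against 273.4 CPM. FZD3, a receptor of planar cell polarity and axon guidance, had 143.9 against 379.7 CPM and a ratio of 0.379. FZD6, of the same subfamily, had 0.749, FZD9 had 0.956 on 53 and 172 UMIs, and FZD10 had 17 and 30 UMIs. FZD1, FZD2 and FZD7 together thus held 29.8% of frizzled UMIs in contractile cells (29.4 to 30.3%) against 11.7% in the others, FZD3 and FZD6 35.4% against 49.6%, and FZD5 and FZD8 32.6% against 37.99%. The co-receptors LRP6 and LRP5 had ratios of 0.574 and 0.789.

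**Figure D2:**
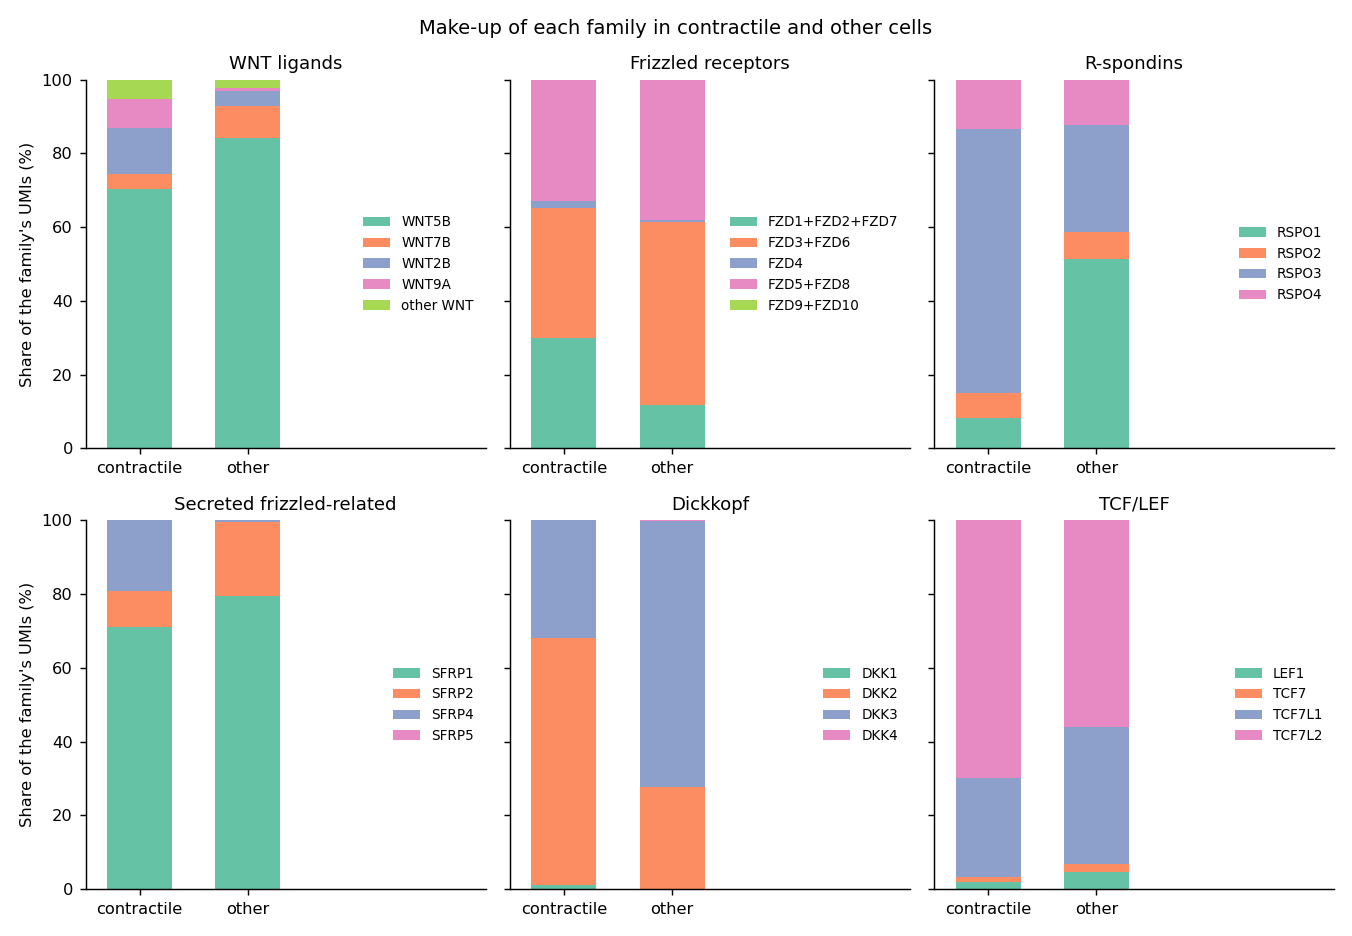
Share of each family's UMIs (percent, vertical) held by its members or subfamilies in contractile and other cells; shares are of UMIs and are not corrected for gene length. FZD1, FZD2 and FZD7 hold 11.7% of frizzled UMIs in the other cells and 29.8% in contractile cells. In that order, SFRP4 holds 0.521% and 19.1% of the UMIs of SFRP1, SFRP2, SFRP4 and SFRP5, DKK2 27.5% and 67.0% of its family, and RSPO3 29.0% and 71.8%. FRZB (SFRP3) was not a member and is left out of its family, with 34389 UMIs in the other cells and 1252 in contractile cells.

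Of the 4 R-spondins, RSPO1 was called lower (24% of all genes were) and none was called higher (7.45% of all genes were). RSPO1 (ENSG00000169218, chr1:37611350-37634892, GRCh38) had 53 UMIs in contractile cells, or 0.691 CPM (0.517 to 0.904), and 1997 UMIs, or 8.39 CPM (8.03 to 8.77), in the others. Its ratio of 0.0823 (0.0614 to 0.108) was the lowest of the 36 members, and 99.3% of all genes had a higher one. RSPO3 had 6.13 against 4.74 CPM, a ratio of 1.29, but it was carried by few cells: the richest 10% of contractile cells held 93.0% of its UMIs. RSPO1 held 8.09% of R-spondin UMIs in contractile cells and 51.4% in the others, RSPO3 71.8% and 29.0%. RSPO2 lay just outside the limit for a lower call with a ratio of 0.5002 on 45 and 279 UMIs, and had 0.183 (0.0218 to 0.683) after thinning, past that limit. RSPO4 had 0.560.

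The largest ratio among the 36 members with at least 100 UMIs was that of a secreted inhibitor. SFRP4 (ENSG00000106483, chr7:37905932-38025695, GRCh38) had 7061 UMIs in contractile cells, or 92.0 CPM (89.9 to 94.2), and 834 UMIs, or 3.51 CPM (3.27 to 3.75), in the others. Its ratio was 26.3 (24.4 to 28.2), and 0.471% of all genes had a higher one. With cells picked by TAGLN, MYL9 and ACTA2 it was 15.4. After thinning, 20.6% of contractile cells (18.7 to 22.7%) and 1.32% of the others (1.12 to 1.53%) held an SFRP4 UMI, so its transcripts were in a minority of contractile cells at this depth. The richest 10% of contractile cells held 64.1% of its UMIs, with up to 165 in 1 cell.

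Of the other SFRP genes, SFRP2 was called lower with 47.5 against 133.7 CPM (ratio 0.355, 0.343 to 0.368), and SFRP1 had 341.8 against 535.4 CPM, a ratio of 0.638. SFRP5 had 2 UMIs in all. WIF1, which binds ligands outside the cell, had 7 and 56 UMIs.

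Of the Dickkopf genes, DKK2 (ENSG00000155011, chr4:106921802-107283806, GRCh38), which modulates LRP5 and LRP6, had 43.8 CPM in contractile cells and 5.43 CPM in the others, a ratio of 8.07 (7.56 to 8.61). After thinning, 15.5% of contractile cells and 1.80% of the others held a DKK2 UMI, and before it 45.6% and 5.32%. DKK3, a divergent member that does not block LRP6 as DKK1 does, had 20.9 against 14.3 CPM, a ratio of 1.46. DKK4 had 6 UMIs in all, none in contractile cells. DKK1 had 50 UMIs in 19 contractile cells and 5 UMIs in the others, which gives a ratio of 31.0 with a wide interval (12.4 to 99.7), and 30 of the 50 came from 1 cell, so the count says little about the other contractile cells.

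Of the 5 readouts named above, LEF1, AXIN2 and RNF43 were called lower (24% of all genes were), and TCF7 and ZNRF3 were within 2-fold. LEF1, which is both an effector and a target of the pathway, had 8.46 against 22.9 CPM, a ratio of 0.369 (0.340 to 0.400). AXIN2, the scaffold of the destruction complex that the pathway induces, had 2.28 CPM in contractile cells (1.96 to 2.65) and 4.81 CPM in the others (4.53 to 5.09), a ratio of 0.474 (0.402 to 0.557). RNF43, on 26 and 163 UMIs, had 0.495 (0.314 to 0.751), TCF7 0.556 and ZNRF3 0.735. ZNRF3 stood at 0.953 of the median gene. By UMIs per cell the log2 ratios of AXIN2 and RNF43 turned to 0.25 and 0.31. On that scale LEF1 had a ratio of 0.927, TCF7 1.40 and ZNRF3 1.85, so none of the 5 readouts was called lower. After thinning, AXIN2 had a ratio of 0.371 and RNF43 had 0.835 (0.294 to 1.93), which is no longer a lower call. Against the median gene, AXIN2 stood at 0.615 and RNF43 at 0.642.

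TCF7L1, mostly a repressor of target genes, had a ratio of 0.642, and TCF7L2 had 314.1 against 283.9 CPM, a ratio of 1.11. TCF7L2 made up 69.9% of TCF/LEF UMIs in contractile cells and 56.1% in the others, and LEF1 1.88% and 4.53%. Over all kept cells, the members with the highest CPM were SFRP1 (488.2), WNT5B (330.3), FZD3 (322.2) and TCF7L2 (291.3). Divided by gene span, the highest values were those of FZD5 (33.1 CPM per kb), FZD2 (17.0), SFRP2 (13.3), FZD8 (10.5) and SFRP1 (10.3). WNT5B had 2.82 and AXIN2 0.127 CPM per kb of span. A UMI stands for a captured molecule and not for a length of RNA, so values per kb favour short genes and do not rank levels.

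Other genes of the pathway gave the setting for the members. A list of 71 such genes (the β-catenin destruction complex, R-spondin receptors, co-receptors, planar polarity genes and common targets) held 65 with at least 100 UMIs, of which 9 were called higher (13.8%, against 7.45% of all genes) and 17 lower (26.2%, against 24% of all genes), with a median ratio of 0.813. Those higher were CD44 (36.2, on 17.5 against 0.483 CPM), the glypican GPC4 (10.3), ADGRA2 (6.50, the co-receptor of WNT7 ligands also known as GPR124), DACT1 (5.03, an antagonist of dishevelled), MYC (4.11), MSX2 (3.84), PRICKLE1 (3.78, a planar polarity gene), CCND1 (2.55) and BCL9L (2.498). The CD44 ratio was 19.3 at an index limit of 10 and 4.37 when cells were picked by TAGLN, MYL9 and ACTA2, where MSX2 had 2.03 and BCL9L 1.94. CD44, MYC and CCND1 are often listed as targets of β-catenin and each also answers to other pathways.

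Among the 17 lower genes were targets of the pathway and further inhibitors. The norrin gene NDP had a ratio of 0.0468, FRZB (also known as SFRP3) 0.113 on 16.3 against 144.5 CPM, the R-spondin receptor LGR5 0.128 on 1.77 against 13.9 CPM, and the target SP8 0.214. The non-canonical receptor ROR2 had 0.270, the inhibitor APCDD1 0.347 and the inhibitor NKD1 0.426. The others were TIAM1, APC2, DKKL1, CELSR2, PYGO1, TLE4, CXXC4, NRCAM, KREMEN1 and BCL9, between 0.262 and 0.491. By UMIs per cell, NKD1, PYGO1, TLE4, CXXC4, NRCAM, KREMEN1 and BCL9 turned above 1. The core genes CTNNB1 (1.05), GSK3B (0.813) and AXIN1 (1.29) stayed within 2-fold. Known targets thus lay on both sides.

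Along the contractile index, members differed by degree and not all at the same point. Cells were placed in 8 bins, from an index below 0.5 (8935 cells) to 40 or more (133 cells). SFRP4 went from 2.05 CPM in the lowest bin through 22.6 CPM just below the limit (2.5 to 5) to 152.1 CPM in the highest. WLS went from 1.42 through 16.7 to 48.8 CPM between 20 and 40, and had 41.7 CPM in the highest bin (37.2 to 46.6). DKK2 reached 46.6 CPM between 10 and 20 and had 38.1 CPM in the highest bin. These 3 genes were thus already raised in cells that the limit counted as other cells, and only SFRP4 kept gaining to the end of the scale.

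FZD7 held between 25.97 and 27.6 CPM in all 4 bins below the limit and reached 79.9 CPM in the highest, so it differed only past the limit. WNT9A went from 3.94 to 15.8 CPM. On the other side, WNT5B was lower already before the limit, with 445.8 CPM in the lowest bin and 144.8 CPM just below the limit, and then held between 83.6 and 113.8 CPM. WNT7B, RSPO1 and LEF1 declined along the whole scale, WNT7B from 43.9 to 1.203 CPM and RSPO1 from 9.15 to 0.267 CPM.

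FZD5 and FZD8 went the other way before they declined. FZD5 had 267.9 CPM in the lowest bin, 303.3 CPM (292.8 to 314.1) between 2.5 and 5, and 45.97 CPM (41.2 to 51.1) in the highest. FZD8 had 49.5, 55.1 and 6.01 CPM in the same bins. TCF7L2 also peaked between 5 and 10 with 364.5 CPM and had 272.6 and 245.9 CPM at the ends. The median depth of the bins grew from 16645 to 56588 UMIs, so depth moved with the index. Cells of 20000 to 60000 UMIs still differed in depth, with medians of 42259 UMIs in contractile and 25518 UMIs in other cells. Among them, the ratio of contractile to other cells was 22.9 for SFRP4, 12.4 for WLS and 7.44 for DKK2. It was 1.99 for FZD7, 0.234 for WNT5B and 0.0974 for RSPO1. Without the barcodes of the highest doublet scores, it was 29.3 for SFRP4 and 16.2 for WLS.

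**Figure D3:**
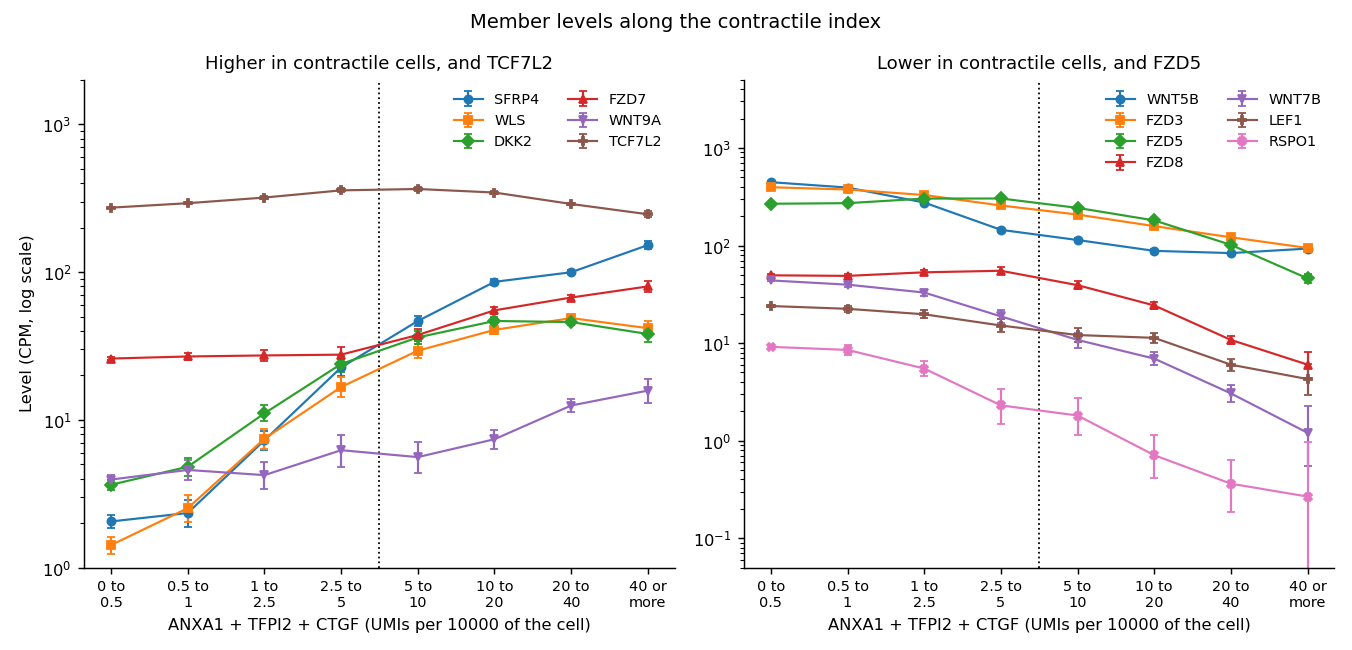
Level in CPM (log scale, vertical) of selected members in cells binned by their ANXA1, TFPI2 and CTGF index (UMIs per 10000, horizontal), with exact 95% Poisson intervals; the dotted line marks the limit of 5 for a contractile cell. SFRP4, WLS and DKK2 climb before the limit, FZD7 only after it, and FZD5 peaks at 303.3 CPM just below the limit and drops to 45.97 CPM in the highest bin.

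Among members, the choice of genes that define contractile cells moved the ratio of WLS most. When the same number of cells was taken by TAGLN, MYL9 and ACTA2 in place of ANXA1, TFPI2 and CTGF, 1190 of the 1584 cells were shared, and the WLS ratio went from 14.9 to 2.58. SFRP4 then had 15.4, DKK2 7.74, WNT9A 2.71 and FZD7 1.96. The cells were therefore divided, after these values were seen, by the index or indices that picked them.

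WLS had 85.3 CPM (81.2 to 89.5) in the 394 cells picked by ANXA1, TFPI2 and CTGF only, 28.1 CPM in the 1190 cells picked by both, 3.64 CPM in the 394 cells picked by TAGLN, MYL9 and ACTA2 only, and 2.81 CPM in the 11947 remaining cells. In that order SFRP4 had 44.6, 107.9, 18.3 and 2.73 CPM, and DKK2 had 24.9, 50.1, 26.3 and 4.34 CPM. WLS was thus highest outside the overlap, whereas SFRP4 and DKK2 were highest within it. SFRP2 (93.6, 32.1, 35.9 and 138.8 CPM) was less reduced in the cells with most WLS than in the other picked cells. LEF1 had 15.1 (13.4 to 17.0), 6.23, 12.96 (10.99 to 15.2) and 23.5 CPM, so its intervals overlapped between the cells picked by either index alone. The readout AXIN2 had 1.87 (1.31 to 2.59), 2.42 (2.03 to 2.85), 3.64 and 4.87 CPM, and was not raised in the cells with most WLS. FZD5 had 123.5 and 149.9 CPM in the cells past the ANXA1, TFPI2 and CTGF limit but 333.4 CPM in those picked by TAGLN, MYL9 and ACTA2 only. Median depth was 48157, 46665, 27037 and 16711 UMIs. In the same order TAGLN had 1509, 5627, 4472 and 232.8 CPM, MYL9 309.3, 603.0, 484.8 and 55.7 CPM, and ACTA2 46.5, 202.8, 289.9 and 23.9 CPM. The cells with most WLS thus had the least of these contractile genes among the picked cells. As these genes form the second index, the division itself shapes this order.

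**Figure D4:**
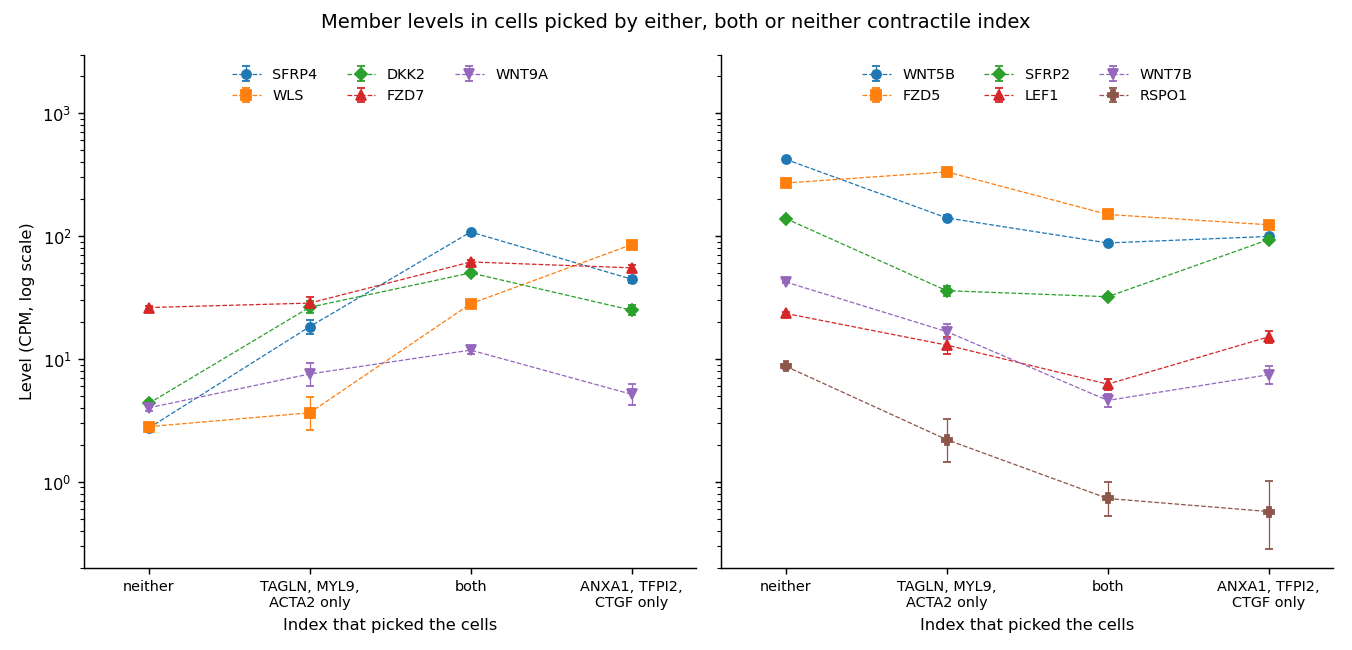
Level in CPM (log scale, vertical) of selected members in the 11947 cells picked by neither index, the 394 picked by TAGLN, MYL9 and ACTA2 only, the 1190 picked by both and the 394 picked by ANXA1, TFPI2 and CTGF only, with exact 95% Poisson intervals; dashed lines only join the points of a gene. WLS is highest at the right with 85.3 CPM, and SFRP4 peaks in the cells picked by both with 107.9 CPM.

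Contractile cells with and without a WLS UMI were then compared, 620 against 964 cells with median depths of 55733 and 40931 UMIs and a median index of 22.2 and 16.5. Of 30 members with at least 100 UMIs in contractile cells (WLS, which made the split, left out), none was called higher (3.3% of all genes) and 3 were called lower (1.37% of all genes). FZD5 had 76.6 CPM with WLS and 200.9 CPM without, a ratio of 0.381 (0.365 to 0.398), FZD8 10.1 and 26.7 CPM, and FZD1 4.13 and 9.29 CPM. All 3 are frizzled receptors, and FZD7 and FZD2 of the same family had ratios of 0.994 and 1.28. SFRP2, WNT2B and DKK3 had 1.78, 1.78 and 1.73, LEF1 1.69, DKK2 0.607 and SFRP4 0.919. In contractile cells of 20000 to 60000 UMIs the FZD5 ratio was 0.460 and SFRP2 was called higher at 2.20. When cells were split after thinning to 5000 UMIs (208 against 1373 cells), SFRP2 (2.21), RSPO3 (2.14) and LEF1 (2.13) were called higher, FZD5 (0.334) and FZD8 (0.305) lower, and FZD1 had 0.557. Between the index bins of 10 to 20 and of 20 to 40, FZD5 went from 180.8 to 101.5 CPM and FZD8 from 24.3 to 10.8 CPM, and the part of the index in the split was not tested.

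Among non-contractile cells, members were read in cells rich in a marker gene, each against the remaining non-contractile cells; these cells are named by the gene that picked them and not as a cell type. The largest ratio was that of RSPO3. In the 109 cells rich in STMN2, a gene of newborn neurons, RSPO3 had 294 UMIs, or 181.2 CPM (161.1 to 203.1), against 3.53 CPM in the rest, a ratio of 51.3 (44.8 to 58.7). RSPO3 UMIs were found in 50 of these cells (45.9%) against 4.95% of the rest, although these cells were shallower (median 13101 against 16949 UMIs). RSPO1 went the other way, with 3 UMIs and a ratio of 0.219 (0.0451 to 0.641).

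Of the 36 members, 2 were called higher in STMN2-rich cells (11.3% of all genes) and 11 lower (18.4% of all genes). The second higher one was WLS, on 16 UMIs in 10 cells, with 9.86 against 2.80 CPM (ratio 3.52, 2.00 to 5.76). The lower ones were FZD5 (0.278, on 124 UMIs), SFRP2 (0.271), TCF7L2 (0.318), FZD8 (0.331), TCF7L1 (0.366), WNT7B (0.374), LEF1 (0.375), FZD2 (0.399), SFRP1 (0.447), RSPO1 and WNT3, the last on 2 UMIs. FZD3 and LRP6 were within 2-fold of the rest.

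EMX2, a factor of the dorsal telencephalon, picked 999 cells. In them 3 of 36 members were called higher (1.12% of all genes) and 1 lower (1.98% of all genes). WNT2B, a ligand of the cortical hem, had 40.9 CPM (37.8 to 44.2) against 18.5 CPM, a ratio of 2.20 (2.03 to 2.40). RSPO2, on 43 UMIs, had 2.57 (1.81 to 3.56), and FZD9, on 24 UMIs, had 2.28 (1.42 to 3.53). DKK2 was lower with 2.34 against 5.65 CPM (ratio 0.415). The hem marker LMX1A had a ratio of 0.684 on 7 UMIs in these cells, and BMP6 1.51. MSX1, GDF7 and TTR were also counted in these cells, but their values are left out here. LMX1A and BMP6 alone do not speak for the hem markers as a set.

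In the 178 cells with RAX or SIX6, genes of the eye field, WNT2B had 9.95 against 20.2 CPM, a ratio of 0.493 (0.343 to 0.687), and was 1 of 3 members called lower (7.3% of all genes), with none called higher (1.73% of all genes). The other two, FZD9 and RSPO2, had 0 and 1 UMI. In the 52 NKX2-1-rich cells, a marker of ventral forebrain, WNT4 had 11.9 against 3.02 CPM on 10 UMIs, a ratio of 3.94 (1.88 to 7.29). There 3 members were called higher (5.91% of all genes) and 6 lower (16.2% of all genes), and apart from WNT4 and WNT3 (8 UMIs) those called had at most 2 UMIs.

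In the 40 PAX3-rich cells, PAX3 being a gene of the dorsal neural tube and crest, WNT7B had 82.1 against 40.9 CPM on 57 UMIs, a ratio of 2.01 (1.52 to 2.60), and WLS 10.1 against 2.83 CPM on 7 UMIs in 4 cells. Here 3 members were called higher (6.95% of all genes) and 5 lower (17.5% of all genes), the rest of them on at most 3 UMIs. Dividing cells differed little: in the 4918 cells rich in MKI67, TOP2A, CDK1 and UBE2C, 1 member was called lower (1.28% of all genes), RSPO3 with 3.06 against 6.37 CPM, and none higher (1.77% of all genes). Split by the same limit, contractile cells gave SFRP4 ratios of 25.2 below it and 27.9 at or above it, and WLS ratios of 16.7 and 12.9.

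**Figure D5:**
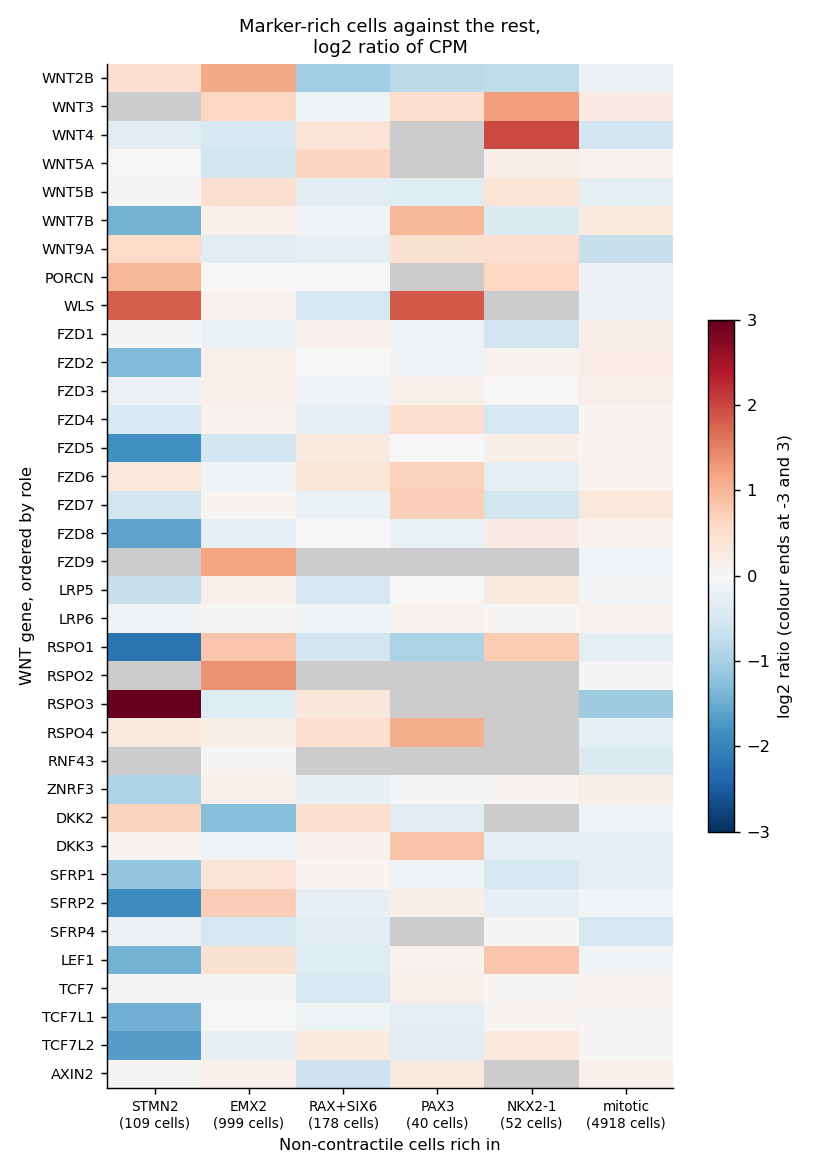
Log2 ratio of CPM (colour, from -3 to 3) of 36 members (rows, ordered by role) in non-contractile cells rich in a marker (columns, with the number of cells) against the remaining non-contractile cells; grey marks fewer than 3 UMIs in the marker-rich cells. RSPO3 in STMN2-rich cells is the darkest square, at a ratio of 51.3, and the column of 4918 mitotic cells is pale throughout apart from RSPO3.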

How the data were processed

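Single-cell RNA-seq was done with the 10x Chromium 3′ HT v3.1 kit on 1 library of hHAR123 cells. The authors deposited raw UMI counts per gene and barcode, with no normalization. Per the submitters' notes, these counts were made with Cell Ranger 7.0.1 from reads mapped to GRCh38, and the study went on with Seurat 4.4.0; the deposited counts still held barcodes outside its limits. Cell Ranger was run at default settings, which in this version also count reads in introns and only reads on the strand of the gene. The annotation version is not given in the sources used here. Depth was a median of 17900 UMIs per kept cell.

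Cells were filtered by the study's limits, the mitochondrial limit of 0.1 being read as a fraction. Levels are pooled CPM with exact 95% Poisson intervals, ratios carry the exact conditional interval, and shares of cells the exact Clopper-Pearson interval. All cover counting error only, and UMIs shared through free RNA were not corrected for. For a count of 0, the bound is the level of 3 counts. Marker-rich cells reached per 10000 UMIs 5 of STMN2, 2 of EMX2, 1 of RAX and SIX6, 1 of PAX3, 1 of NKX2-1 or 5 of the mitotic genes. The code for calls and intervals was run on simulated Poisson counts with planted ratios well past the limits for a call. Those counts follow the model of the intervals and hold no uneven spread over cells. The run therefore checks the code and not how well the intervals describe these cells. Scrublet (scanpy 1.11.5) marked 1 of 14726 barcodes at an expected rate of 8%, which is too few for a working caller, so doublets stayed in. An alternative left out the 1178 highest scores. Thinning to 5000 UMIs left out 28 cells, 3 of them contractile. Scripts ran in Python 3.11.15 with scipy 1.17.1, numpy 2.4.6, matplotlib 3.10.9 and pandas 2.3.3. Gene spans came from GENCODE on GRCh38.

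Every member is accounted for: those at 1 CPM or more in either cell group are given with values, the others with at least their UMIs, and of the pathway list those past 2-fold. The members, the lists and the comparisons were chosen with earlier results of these data known. The division by both indices, the depth range and the mitotic split were added after seeing the data.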

Additional observations from a re-analysis of the deposited data

Results flagged for a closer look

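Antisense genes of 2 members held UMIs although no comparison used them. WNT5A-AS1, on the strand opposite to WNT5A, had 36 UMIs in the kept cells, or 0.114 CPM, above the 0.00953 CPM that a count of 0 allows, with a ratio of contractile to other cells of 0.749 (0.277 to 1.75). ZNRF3-AS1, on the strand opposite to ZNRF3, had 305 UMIs, or 0.969 CPM, with a ratio of 0.579 (0.416 to 0.791).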

How the results depend on the processing

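No paired analysis was possible because there is 1 library. The members called higher (5) and lower (11) between contractile and other cells became 12 and 2 by UMIs per cell, and 10 and 19 without the minimum of 100 UMIs. The lower calls became 7 with the TAGLN, MYL9 and ACTA2 index (WNT4, FZD1, FZD8, RNF43 and AXIN2 lost, RSPO2 gained; FZD7 lost its higher call) and 7 after division by the median gene ratio (added later; WNT4, FZD1, RNF43 and AXIN2 lost). Of all genes, 47.6% were then higher and 4.21% lower by UMIs per cell, 11.5% and 32.1% without the minimum, 5.84% and 21.96% with that index, and 11.2% and 14.6% after division by the median. Among members, FZD4 gained a higher call after that division (2.47). The pathway list (9 higher, 17 lower) became 34 and 3 by UMIs per cell and 15 and 10 after division by the median. By UMIs per cell the log2 ratio turned positive for WNT4 (0.10), FZD1 (0.26), RNF43 (0.31), AXIN2 (0.25), KREMEN1 (0.26), NKD1 (0.10), TLE4 (0.15), BCL9 (0.30), PYGO1 (0.063), CXXC4 (0.23) and NRCAM (0.23), as contractile cells hold more UMIs. Over all settings run but UMIs per cell, SFRP4 ranged from 15.4 to 38.3, DKK2 from 6.54 to 10.9, WLS from 2.58 to 20.3, WNT9A from 2.11 to 3.15, FZD7 from 1.96 to 2.96, RSPO1 from 0.0552 to 0.121, AXIN2 from 0.371 to 0.615 and, of the pathway list, CD44 from 4.37 to 46.99 and NDP from 0.0240 to 0.111. In marker-rich cells the members past 2-fold went from 3 to 8 (thinned) and 15 (double the limit, 24 cells) for RAX and SIX6, while those of all genes went from 9.02% to 21.2% and 35.5%. For PAX3 they went from 8 to 18 and 31, the last in 1 cell, and all genes from 24.4% to 41.9% and 83.6%. At double the limit they went from 9 to 16 for NKX2-1 (12 cells, all genes 22.1% to 44.5%) and from 1 to 0 for mitotic cells (3.04% to 2.71%). For the WLS split they went from 3 to 5 when the split was made after thinning (4.66% to 4.27%). The cause of these shifts was not tested. Counts in the PAX3, NKX2-1 and RAX or SIX6 cells rest on few UMIs (a count of 0 allows up to 4.32, 3.57 and 0.853 CPM). Of 75 recomputed counts and summaries, 17 moved by over 1.5 times or past their interval. Of the ratios of single genes called, 261 recomputed values stayed within the counting interval of the reported ratio, 316 lay outside it in the same direction and 11 changed sign, all by UMIs per cell.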
